A study of Homo sapiens with 2 samples.

Results

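Intragenic TCF4 peaks are the chromatin immunoprecipitation sequencing (ChIP-seq) peaks that the authors placed inside the body of a gene. They were taken as the peaks with the position class Within on chromosomes other than 3 and 18, each interval once. This gave 224 of the 661 distinct peaks in the authors' table, at 126 of its 275 genes and on 21 chromosomes. The other 206 peaks outside chromosomes 3 and 18 lay upstream (105) or downstream (101) of their gene, so that 52.1% (exact binomial 95% interval 47.3 to 56.9) of the 430 peaks there were intragenic. On chromosomes 3 and 18 the same share was 51.9% (45.3 to 58.5, 120 of 231 peaks).

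The cells were TMD8, an established line of activated B cell-like diffuse large B cell lymphoma. The labels record no gained TCF4 copies in them and a TCF4 transgene under tetracycline control, which was induced with 60 ng/ml doxycycline for 24 hours. The 2 libraries were a TCF4 immunoprecipitate and an input made from whole cell extract, both from induced cells with foreign spike-in chromatin added, and neither had a replicate. The antibody was not a commercial one, per the labels. No uninduced library was analysed here, so binding by the induced protein and by the cells' own TCF4 cannot be told apart. The labelled cell type could not be checked by expression, since the data hold no RNA.

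TCF4, also called E2-2, is a basic helix-loop-helix factor of the E protein family. E proteins bind DNA as dimers at E-boxes, short palindromic sites of the form CANNTG, and in B cells they act at promoters and at enhancers, many of which lie in introns. They are known for their part in B cell commitment and in the expression of immunoglobulin and B cell receptor genes. A peak inside a gene body can therefore mark an element of that gene or of a neighbour, and the gene name beside each peak is the authors' assignment.

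At 3 of the 224 peaks the interval had to include the annotated transcription start site (TSS), whichever way the authors' distance was measured: those of EEF2K, F11R and SYTL1. The RefSeq promoters (GRCh38.p14, 250 bases before to 50 after the start) of EEF2K and SYTL1 are shown because their starts lie under a peak. F11R, a junctional adhesion molecule gene, is named only. Capitals mark each CANNTG, which reads the same on both strands.
EEF2K, chr16:22206028-22206327, plus strand: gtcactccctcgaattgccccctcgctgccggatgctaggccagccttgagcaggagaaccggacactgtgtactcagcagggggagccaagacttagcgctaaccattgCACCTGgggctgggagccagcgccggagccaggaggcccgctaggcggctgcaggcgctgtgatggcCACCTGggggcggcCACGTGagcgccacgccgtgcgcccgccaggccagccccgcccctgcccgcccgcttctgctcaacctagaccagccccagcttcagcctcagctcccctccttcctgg
SYTL1, chr1:27341772-27342071, plus strand: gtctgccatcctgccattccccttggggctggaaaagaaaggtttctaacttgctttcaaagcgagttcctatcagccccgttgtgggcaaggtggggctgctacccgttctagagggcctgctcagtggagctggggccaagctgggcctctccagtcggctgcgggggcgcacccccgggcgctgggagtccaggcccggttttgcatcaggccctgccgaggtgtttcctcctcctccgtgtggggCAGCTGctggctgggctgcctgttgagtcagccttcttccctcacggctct
The EEF2K window held 3 matches, CACCTG at bases 111 to 116 and 178 to 183 and CACGTG at bases 192 to 197, counted from the 5′ end of the window. The SYTL1 window held 1 match, CAGCTG, at bases 250 to 255, across the start itself. Of 35116 RefSeq promoters of the same length, 68.7% held a CANNTG, 20.6% a CAGGTG or its reverse complement CACCTG, and 17.9% a CAGCTG. Such a share was not counted for CACGTG or for several matches in a window. A match is a string in the window and not a measured site. The authors' transcripts spanned 82475 bp (EEF2K) and 11941 bp (SYTL1), and the RefSeq genes 82461 and 11911 bp. No sequence was read by peak coordinates, because no hg19 sequence was used here.

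Summed over the intragenic intervals there were 27095 reads in the ChIP library and 4720 in the input. Per interval, ChIP reads ranged from 18 to 899 around a median of 84.5, and input reads from 2 to 82 around a median of 18. Fold is the ratio of ChIP to input reads times the library scaling of 1.31, and its exact 95% interval covers counting error in these 2 libraries only. The median fold was 6.48, the quartiles were 4.51 and 8.97, and the extremes 2.14 and 29.8. The interval lay above 2 in 192 peaks (85.7%), and 85.5% of all 661 peaks passed that limit, so the intragenic share was near the background. Of the upstream and downstream peaks outside chromosomes 3 and 18, 182 (88.3%) passed it. The authors called all peaks from the same reads, so enrichment as such was not tested. Fold reached 15 at 12 peaks and stayed under 3 at 15 peaks. The lowest-scoring peak was at E2F2, a cell cycle transcription factor gene, with 18 ChIP and 11 input reads and an interval (0.958 to 5.02) that included 1. The next were at BICD1 with 28 and 15 reads, SP1, a zinc finger factor gene, with 31 and 16, and EEF2K with 18 and 9.

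**Figure D1:**
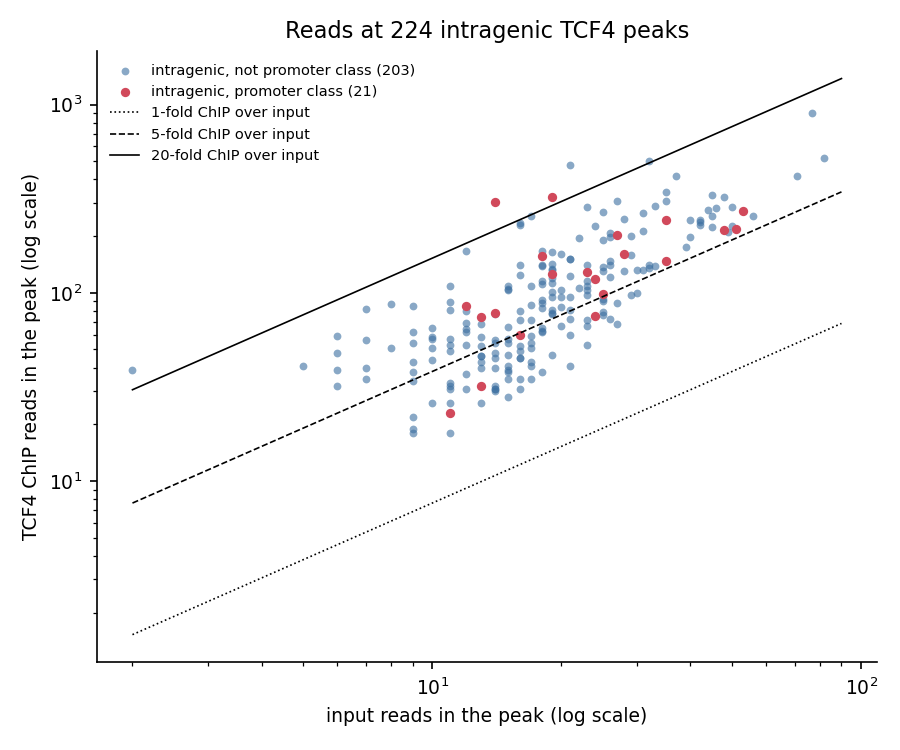
ChIP reads (vertical, log scale) against input reads (horizontal, log scale) of each of the 224 intragenic peaks, with the 21 promoter-class peaks in red and lines at 1-, 5- and 20-fold after library scaling. Every point lies above the 1-fold line, and input reads run from 2 to 82.

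The peaks were spread along gene bodies. Position was taken as the distance to the TSS divided by the distance from TSS to gene end, for the 217 peaks with both distances, and the median was 48.8% of the way (order-statistic 95% interval 41.6 to 51.3). Cut into 5 equal stretches from the TSS on, gene bodies held 47, 45, 55, 41 and 29 peaks. These are 21.7% (16.4 to 27.7), 20.7% (15.5 to 26.7), 25.3% (19.7 to 31.7), 18.9% (13.9 to 24.7) and 13.4% (9.14 to 18.6). The intervals of neighbouring stretches overlapped, and those of the third and the last did not. Peaks of a gene share their source, so these intervals are too narrow. The authors measured distances from a paired region to a transcript they chose, and in 21 of the 59 genes with several peaks those peaks were set against more than 1 transcript. Median fold along the same stretches was 5.78, 6.62, 6.86, 6.52 and 5.92, and across the 217 peaks, which share 2 libraries, position and score had a Spearman's correlation of 0.03. The score is the authors' normalized log2 ratio.

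In base pairs, the median distance was 25.8 kb to the TSS (217 peaks) and 34.0 kb to the gene end (all 224). Of the 217 peaks, 21 (9.68%, 6.09 to 14.4) lay within 2000 bp of the TSS, 36 (16.6%) within 5000 bp and 54 (24.9%) within 10000 bp, while 20 lay more than 100000 bp away. Only 6 peaks (2.76%, 1.02 to 5.92) came within 2000 bp of the gene end. The nearest to it were at CACYBP, which encodes a partner of the SIAH ubiquitin ligase, at 147 bp, E2F2 at 408 bp and ALDOC, a glycolytic aldolase gene, at 436.5 bp. ZNF580 at 722 bp, PTAFR, the receptor gene of platelet-activating factor, at 1111.5 bp and DKFZP586I1420 at 1147 bp followed. The farthest from a TSS were 2 peaks of ARHGAP24, at 313 and 277 kb, then those of DLEU1 at 272 kb, BICD1 at 263 kb and DLEU1 again at 259 kb. Exon, intron and UTR were not assigned, since the hg19 annotation was not used here.

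**Figure D2:**
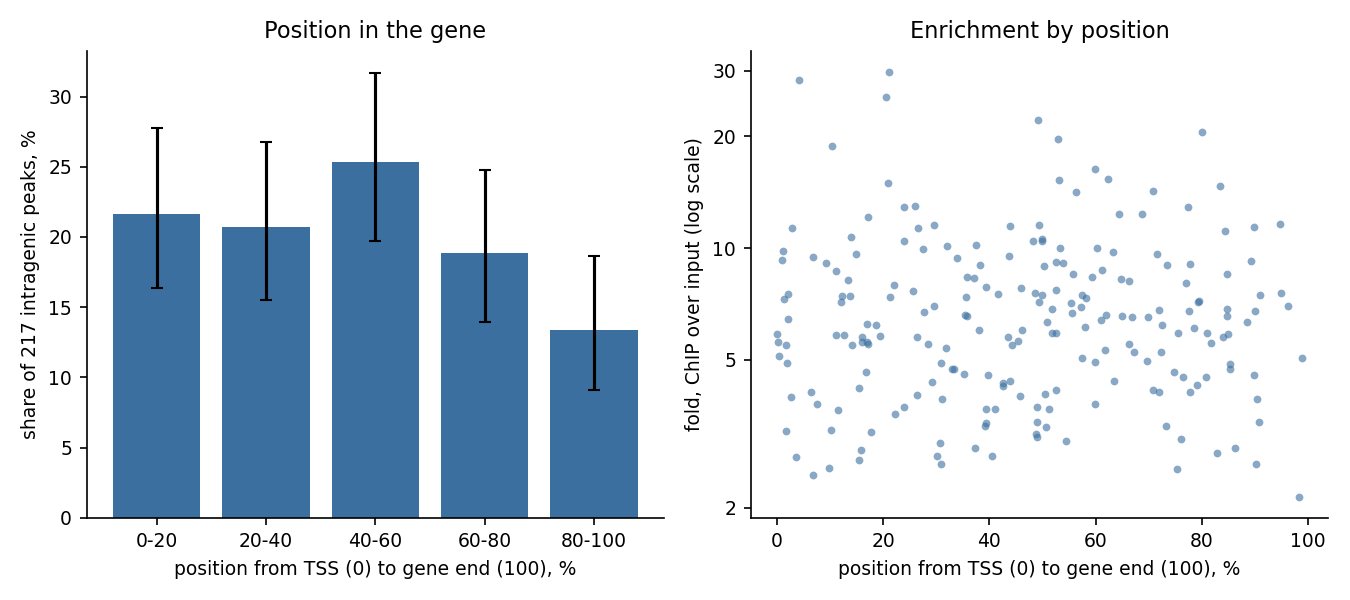
Left, share of 217 intragenic peaks (percent) in 5 equal stretches of the gene from TSS to gene end, with exact binomial 95% intervals as bars. Right, fold of ChIP over input (log scale) of each peak against its position. The shares run from 25.3% in the middle stretch to 13.4% in the last, and folds above 20 occur at the start, in the middle and at 80.02% of the way.

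The highest-scoring peaks with at least 10 input reads lay in genes of unlike function. HIVEP1, whose product binds kappa B-type enhancer motifs, had 478 ChIP and 21 input reads at chr6:12044501-12045280 (hg19, as all peak positions here), a fold of 29.8 (19.3 to 48.6) in the first part of the gene, 21.1% of the way. Its other peak, 90.8% of the way, had 39 ChIP and 15 input reads, giving a fold of 3.40 (1.84 to 6.65). The intervals were apart, and the ratio of the folds, 8.75, was the largest among the 59 genes with several peaks. CRYZ, a quinone reductase gene, had 303 ChIP and 14 input reads at chr1:75197526-75198376, 1176.5 bp from the TSS, and a fold of 28.3 (16.6 to 52.5). ZNF580, a zinc finger gene of 1419 bp, had 321 ChIP and 19 input reads in a 212 bp peak at chr19:56154042-56154254, and its fold was 22.1 (13.9 to 37.2). That peak had the highest ChIP density of all intragenic peaks, 34.8 in the authors' unit, against an input density of 1.57.

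ITGAX encodes CD11c, an integrin subunit of myeloid cells and of some B cells, and was marked Down in the authors' signature. It had 2 of the 11 highest peaks. The peak at chr16:31387951-31389601, 80.02% of the way along the gene, had 503 ChIP and 32 input reads, giving a fold of 20.6 (14.4 to 30.4). The peak at chr16:31368726-31369776, 2902 bp from the TSS, had 230 and 16 reads and a fold of 18.8 (11.3 to 33.5). The intervals of the pair overlapped. SHB, a signalling adaptor gene, had its highest peak 52.9% of the way with 256 ChIP and 17 input reads, giving a fold of 19.7 (12.1 to 34.4). Its other peaks had folds of 10.5 and 5.92.

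ECHS1, a gene of mitochondrial fatty acid oxidation, had 287 ChIP and 23 input reads, giving a fold of 16.3 (10.7 to 26.2). FN3KRP, a protein deglycation kinase gene, had 309 and 27 reads and a fold of 14.99 (10.1 to 23.1). The intervals of the 11 highest peaks overlapped one another, and differences between them were not tested. DHX32, a helicase-like gene, had a fold of 25.5 with an interval of 6.61 to 218 because it rested on 2 input reads, the fewest of any intragenic peak. The 2 peaks named IGHM, the constant region gene of IgM, had 235 ChIP and 16 input reads and 166 and 12 reads, with folds of 19.2 and 18.1. The 5 peaks named IGH@ had folds of 6.55 to 10.5, and these 7 are the intragenic peaks that have no TSS distance. By coordinates, the IGHM peaks lay among those named IGH@, 79.2 and 100.4 kb from the authors' gene end. Whether they lie in IGHM itself was not checked.

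**Figure D3:**
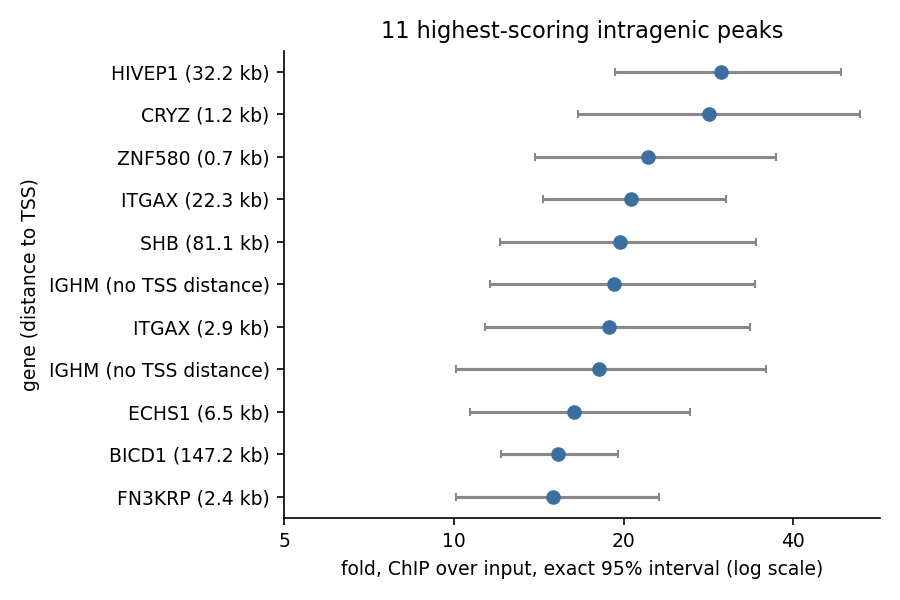
Fold of ChIP over input (log scale) with its exact 95% interval at the 11 highest-scoring intragenic peaks with at least 10 input reads, labelled by gene and distance to the TSS. The points run from 29.8 at HIVEP1 to 14.99 at FN3KRP, and all intervals overlap.

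B cell receptor signalling was represented by a few genes with several intragenic peaks each. The list used for it and those below were chosen with earlier results of these data known. Their counts and medians are therefore descriptions only, and enrichment of a list was not tested. Of 31 genes on that list, 4 had any peak, and 3 had an intragenic one, among them SYK and BLK, both marked Up. The 3 genes held 10 intragenic peaks with a median fold of 6.12, beside 6.48 over all intragenic peaks, and the interval lay above 2 in 10 of 10, beside 85.7% of all intragenic peaks. SYK, the proximal kinase of the receptor, had 5 intragenic peaks along 78.1 kb with 76, 83, 141, 247 and 62 ChIP reads against 25, 18, 32, 28 and 18 input reads. The peak at chr9:93624026-93625058 had the highest fold of these, 11.6 (7.80 to 17.7). Its interval did not overlap that of the lowest, the peak 2546 bp from the TSS, 3.98 (2.50 to 6.53). It overlapped the intervals of the gene's other intragenic peaks. SYK also had 3 peaks outside the gene, the highest with 10.7-fold.

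BLK, a B cell kinase of the Src family, had 167 and 105 ChIP reads against 18 and 15 input reads at its 2 peaks, and folds of 12.1 (7.46 to 21.0) and 9.17 (5.31 to 17.0). Of 10 B cell marker genes, BLK and IGHM were the names the authors gave to intragenic peaks, with the limit stated above for IGHM. The other 8 had no peak of any class in the table. None of 6 T cell, 6 myeloid marker and 10 other control genes had a peak of any class, but a table limited to signature genes cannot show that a gene was unbound. The myeloid list did not hold ITGAX, described above, which had 2 intragenic peaks.

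B lineage transcription factor genes numbered 29 on the list, of which 7 had any peak and 4 an intragenic peak outside chromosomes 3 and 18: HIVEP1, BCL11A, RUNX1 and IRF4, all marked Up. Their 10 intragenic peaks had a median fold of 6.90, and the interval lay above 2 in 9 of 10, beside 6.48 and 85.7% over all intragenic peaks. BCL11A, a zinc finger repressor needed for early B cells, had 5 peaks along 62.1 kb. In order from the TSS, 4 of them on 1 transcript had 58, 59, 91 and 230 ChIP reads against 13, 6, 18 and 42 input reads. Their folds were 5.84, 12.9, 6.62 and 7.17, and the highest of these had an interval of 5.58 to 36.5 that overlapped the others. The fifth, assigned to another transcript, had 54 and 17 reads and a fold of 4.16.

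RUNX1, a hematopoietic factor gene, had intragenic peaks of 132 ChIP and 19 input reads and of 135 ChIP and 32 input reads, with folds of 9.10 (5.60 to 15.6) and 5.52 (3.73 to 8.40). IRF4, which drives plasma cell differentiation and marks the activated B cell-like type, had 1 intragenic peak, 2423.5 bp from the TSS at chr6:393893-395151. It held 256 ChIP and 45 input reads, and its fold was 7.45 (5.41 to 10.5).

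Of 22 apoptosis and p53 pathway genes, 5 had any peak and 3 had an intragenic one here. Their 4 peaks had a median fold of 9.10, and the interval lay above 2 in 4 of 4, beside 6.48 and 85.7% over all intragenic peaks. MDM4, an inhibitor of p53, had 137 and 141 ChIP reads against 25 and 16 input reads, 5040 and 12341.5 bp from the TSS, with folds of 7.18 (4.66 to 11.5) and 11.5 (6.86 to 20.7). BIK, a pro-apoptotic BH3-only gene, had 124 ChIP and 16 input reads, giving a fold of 10.1 (6.01 to 18.3). BCL2L11, which encodes the BH3-only protein BIM, had 283 and 46 reads at an intragenic peak 77.04% of the way and a fold of 8.06 (5.88 to 11.3). All 3 genes were marked Up.

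Of 33 cell cycle and replication genes, 6 had any peak and 3 an intragenic one: E2F1, E2F2 and RFC3, with 5 peaks and a median fold of 7.20. The interval lay above 2 in 4 of 5, beside 85.7% over all intragenic peaks, whose median fold was 6.48. E2F1, which drives entry into S phase, had 243 ChIP and 35 input reads 1019 bp from the TSS and a fold of 9.09 (6.36 to 13.4). RFC3, a subunit of the replication clamp loader, had 63, 112 and 77 ChIP reads against 18, 18 and 14 input reads. Its folds were 4.58, 8.15 and 7.20, with overlapping intervals. These peaks lay 52.3 to 118 kb from the start of a transcript of 148 kb.

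Genes of the cytoskeleton and vesicle transport held 16 intragenic peaks at 4 of 23 listed genes, with a median fold of 6.70 and the interval above 2 in 13 of 16, beside 6.48 and 85.7% over all intragenic peaks. BICD1, an adaptor for the dynein motor, had the most intragenic peaks of any gene, 6 along 248 kb. Along the chromosome, with the first on another transcript than the rest, they held 28, 899, 101, 43, 68 and 243 ChIP reads against 15, 77, 19, 17, 13 and 42 input reads. The peak at chr12:32405308-32407526, near the middle of the gene, was 2218 bp wide and held the most ChIP reads of all 224. Its fold was 15.3 (12.1 to 19.6), and the other 5 had folds of 2.44 to 7.58. Only the interval of the peak with 68 ChIP reads, 6.85 (3.75 to 13.5), overlapped it.

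ARHGAP24, a gene of a GTPase-activating protein, had 5 peaks on 3 transcripts, with 72, 51, 22, 123 and 38 ChIP reads against 16, 8, 9, 21 and 9 input reads along the chromosome. Their folds ran from 3.20 to 8.35, and all intervals overlapped. RAB30, a small GTPase gene of the Golgi, had 3 peaks with folds of 6.31 to 10.02. FAM49A, marked Down, had 98 ChIP and 25 input reads 537.5 bp from the TSS and 89 and 11 reads 49.9% of the way along, with folds of 5.13 (3.28 to 8.31) and 10.6 (5.64 to 21.99). BICD2, a relative of BICD1, had a promoter-class peak of 11.3-fold (6.95 to 19.7). Of the metabolic list, 3 of 21 genes had an intragenic peak, namely CRYZ, ALOX5, a lipoxygenase gene of leukotriene synthesis, with 9.63 (7.04 to 13.5), and PITRM1, a mitochondrial peptidase gene, with 4.63 (2.46 to 9.35).

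The other genes with at least 4 intragenic peaks were DLEU1, EEF2K, WDR66, PDE4DIP and RGS3. DLEU1, a long noncoding RNA gene, had folds of 3.02 to 6.40, and 3 of its 4 peaks had an input density above 1, against a median of 0.593 over all intragenic peaks. EEF2K, the kinase of elongation factor 2, had 215 ChIP and 48 input reads at its start and a fold of 5.87 (4.27 to 8.20). Its peak 73.5% of the way had 62 and 9 reads and 9.02-fold (4.46 to 20.6), and the 2 between had 18 and 31 ChIP reads. WDR66, marked Down, had 5 peaks with folds of 3.30 to 5.24, all below the median of intragenic peaks. PDE4DIP, a centrosome and Golgi scaffold gene marked Down, had 288 ChIP and 33 input reads 89.8% of the way and a fold of 11.4 (7.96 to 16.9), while its other 3 peaks had folds of 3.74 to 4.95. RGS3, a G protein regulator gene marked Down, had folds of 3.58 to 7.73.

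**Figure D4:**
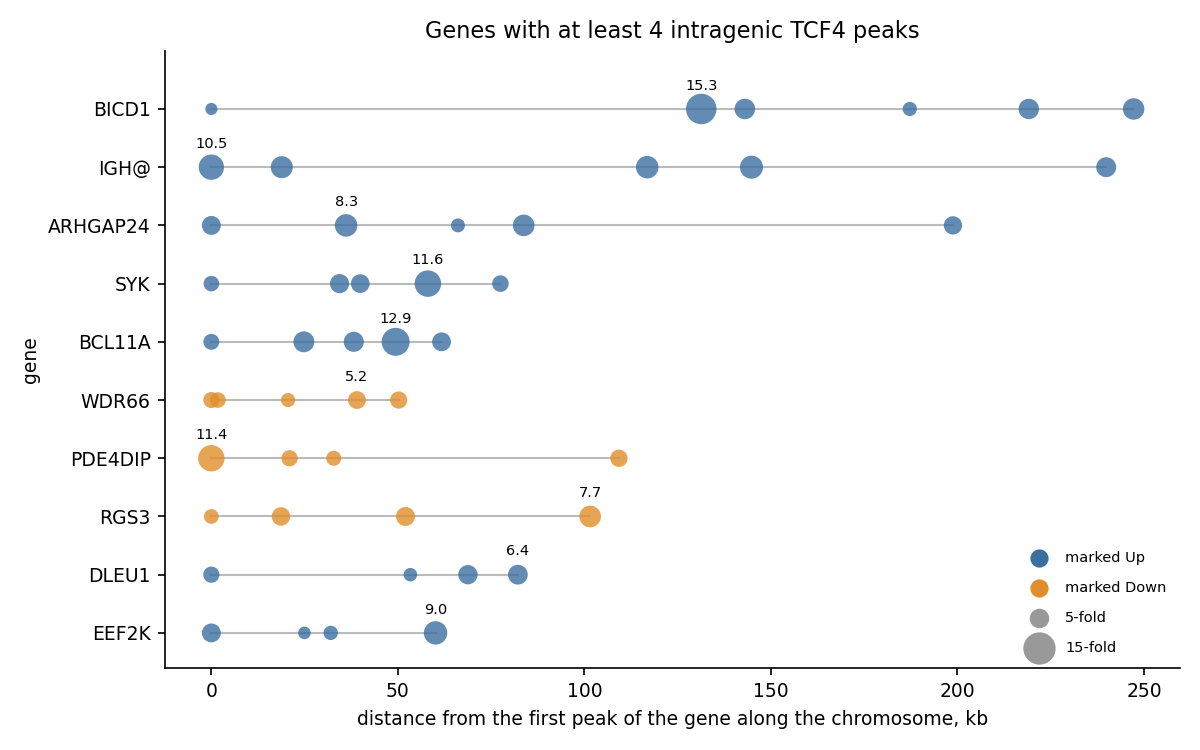
Intragenic peaks of the 10 genes with at least 4 of them, by distance in kb along the chromosome from the first peak (horizontal), with marker area proportional to fold and the highest fold of each gene printed. Blue genes were marked Up and orange genes Down. Peaks of BICD1 stretch over 248 kb and those of IGH@ over 241 kb, and the highest peak is at neither end in BICD1, SYK, BCL11A, ARHGAP24 and WDR66.

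In all, 67 genes had 1 intragenic peak, 37 had 2, 12 had 3 and 10 had 4 or more, a mean of 1.78 ± 1.09 per gene (SD, 126 genes). Neighbouring peaks of a gene were a median of 19.4 kb apart (98 gaps, quartiles 14.1 and 33.2 kb). The gap was under 5 kb in 4 cases, the smallest being 414 bp in AZIN1, an antizyme inhibitor gene. Genes whose longest assigned transcript was longer had more intragenic peaks (Spearman's correlation 0.58, Pearson's 0.56 over 124 genes, as a description). Only genes with an intragenic peak entered, and genes with more peaks can draw on more transcripts. In 9 of the 59 genes with several peaks, the intervals of the highest and lowest peak were apart, among them BICD1, SYK, PDE4DIP, FAM69A, SHB, HIVEP1, SP1 and UHRF1. Each pair was picked by its values, which makes apart intervals likelier, the more so in genes with more peaks. The count is a description only. Among 57 such genes with TSS distances, the highest peak had the smallest of these distances in 23. Among the 36 of them with 2 peaks, it did so in 20. These counts were not set against those of a random pick, so no lean towards or away from the TSS is read from them. In the 21 genes with peaks on more than 1 transcript, distances to different starts were compared, so the order along the gene can differ. Peaks outside the gene body accompanied the intragenic ones at 61 of the 126 genes, and in 28 of these the highest peak of the gene was intragenic.

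The 21 intragenic peaks of the promoter class, within 2000 bp of a TSS, had a median fold of 7.30 (order-statistic interval 5.57 to 8.68), and the other 203 had 6.31 (5.88 to 6.81). The intervals overlapped, but they take peaks as independent, and the difference was not tested. The fold interval lay above 2 in 19 of 21 (90.5%, 69.6 to 98.8) and in 173 of 203 (85.2%), beside 85.5% of all 661 peaks, so both were near the background. Beyond CRYZ, ZNF580, BICD2, E2F1, EEF2K, F11R, SYTL1 and FAM49A, the class held USP7, a deubiquitinase gene of the p53 pathway, with 203 ChIP and 27 input reads, giving a fold of 9.85 (6.57 to 15.3). LMO2, a hematopoietic cofactor of E protein complexes marked Down, had 85 and 12 reads 327.5 bp from the TSS and a fold of 9.28 (5.04 to 18.7). ZC3HAV1L had 8.68, SLA, an adaptor gene that restrains antigen receptor signalling, 7.53, METTL3, the RNA adenosine methyltransferase gene, 7.45, and DKFZP586I1420 7.34. MTMR1, a lipid phosphatase gene, had 7.30, ZNF511 6.72 and PAWR, a pro-apoptotic gene, 6.44. The lowest were SET, a histone chaperone gene, with 4.09, CD46, a complement regulator gene, with 3.22 (1.65 to 6.69), and ZWINT, a kinetochore gene, with 2.74 (1.28 to 6.22).

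Of the 224 peaks, 169 lay in 96 genes marked Up and 55 in 30 genes marked Down. The authors' marks Up and Down come from a signature, and the sources used here do not give how it was derived. Median fold was 6.62 (6.21 to 7.30) in peaks of Up genes and 5.52 (4.87 to 6.55) in those of Down genes. These order-statistic intervals overlapped. They take peaks as independent, though peaks of a gene share their source, so they are too narrow. The difference was not tested. Intragenic peaks made up 53.7% (48.0 to 59.3) of the peaks of Up genes and 47.8% (38.4 to 57.3) of those of Down genes. Among Down genes, the highest after ITGAX were MYO1G, a myosin gene of lymphocytes, with 344 ChIP and 35 input reads and 12.9-fold (9.08 to 18.8), PDE4DIP and FAM49A. CHFR, a mitotic checkpoint ubiquitin ligase gene, followed with 10.5 (4.48 to 29.96) on 6 input reads, and DUSP16, a MAP kinase phosphatase gene, with 9.52 (5.52 to 17.6).

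Set against the 206 upstream and downstream peaks, intragenic peaks had near-equal enrichment. Median fold was 6.48 (5.89 to 6.86) in intragenic peaks and 6.43 (5.998 to 7.22) in the others, and the median score differed by 0.01 (bounds from both intervals -0.26 to 0.21). Widths were also close, with medians of 504 bp (460 to 550) and 529.5 bp (482 to 580). The narrowest intragenic peaks were 150 bp wide, at SLA, CLEC2D, PLAGL1 and E2F2, and the widest was 2700 bp, at COL6A1, a collagen gene. Input density, the authors' normalized reads per length, had a median of 0.593 (0.565 to 0.621) in intragenic peaks and 0.525 (0.495 to 0.553) in the others, and these intervals did not overlap. ChIP density had medians of 3.61 (3.30 to 3.95) and 3.14 (2.92 to 3.36), whose intervals overlapped. Peaks of 1 library pair are not replicates, so no test was made of these differences.

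Input density was also higher in intragenic peaks across most chromosomes and in all 4 width classes. Within chromosomes with at least 3 peaks of each kind, the intragenic median was the higher in 14 of 18, and within genes with both kinds in 41 of 61. For ChIP density, the intragenic median was the higher in 12 of 18 chromosomes and 37 of 61 genes, and for fold in 8 of 18 chromosomes and 27 of 61 genes. By width, median input density was 1.17 in intragenic and 1.07 in other peaks up to 300 bp, 0.619 and 0.553 up to 500 bp, 0.565 and 0.478 up to 1000 bp, and 0.521 and 0.474 above that. In each of the 4 width classes the order-statistic intervals of these medians overlapped, and the narrowest class held 20 and 10 peaks. Within intragenic peaks, median input density was 0.782 (0.619 to 0.889) in the promoter class and 0.582 (0.556 to 0.609) in the rest. The cause of these differences was not tested.

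**Figure D5:**
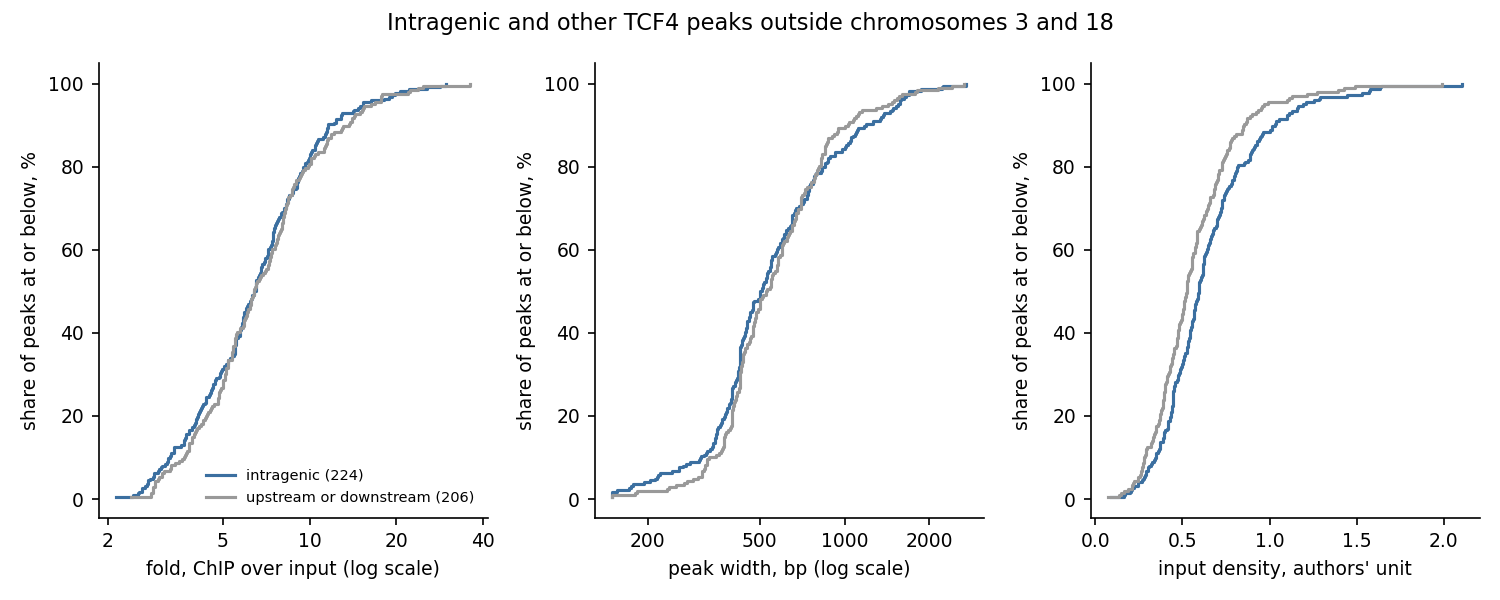
Cumulative share of peaks (percent) by fold (log scale), width in bp (log scale) and input density in the authors' unit, for 224 intragenic peaks (blue) and 206 upstream or downstream peaks (grey). The fold curves run together, with medians of 6.48 and 6.43, and the input density curve of intragenic peaks lies to the right, with medians of 0.593 and 0.525.

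Wider intragenic peaks had higher scores (Spearman's correlation 0.64, Pearson's 0.47) and lower input density (Spearman's -0.45, Pearson's -0.38) over the 224 peaks, as a description. The 20 peaks of up to 300 bp had a median fold of 3.15, and the 34 above 1000 bp had 7.60. ZNF580 (212 bp, 22.1-fold) and the 150 bp peak of SLA (115 ChIP and 18 input reads, 8.37-fold) stood apart among narrow peaks. That SLA peak had the highest input density of the intragenic peaks, 2.10.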

How the data were processed

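TCF4 was mapped by ChIP-seq in 1 ChIP and 1 input library. BWA, GATK and hg19 are named in the submitters' processing notes, and for the peak caller the sources used here give no name. Per the file headers, the table covers only peaks tied to genes of a signature. It had 662 lines for 661 distinct peaks, and the 224 described were all distinct.

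Counts of ChIP and input reads per peak were deposited by the authors. The column marked IC was taken as input, the only other library. They also deposited a log2 ratio with a pseudocount of 1, a normalized log2 ratio (the score), and a normalized signal, here called density. The deposited −log10 p-values were not used to rank peaks. Per the file headers, distances to TSS and gene end are the authors' own.

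Fold was the ratio of reads times the authors' library scaling of 1.31, with no pseudocount. Its Clopper-Pearson 95% interval was tested on simulated independent counts, as its model assumes, so that test cannot show its coverage of these reads. The interval covers counting error only, since PCR reads are not independent molecules. Medians have order-statistic 95% intervals. With 1 library per group no test was made. Python 3.11.15, scipy 1.17.1, pandas 2.3.3, numpy 2.4.6 and matplotlib 3.10.9 were used. Sequences came from RefSeq promoters of GRCh38.p14, matched by symbol (120 of 126 genes by current symbol, 126 with older ones).

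Genes named were the 12 highest by score with at least 10 input reads, genes with at least 4 intragenic peaks, peaks within 2000 bp of a TSS, list members with an intragenic peak, the 5 peaks nearest to a gene end and the 5 farthest from a TSS, the widest, the narrowest and the one with the fewest input reads, and the 6 Down genes with the highest scores. Some genes that this rule names are not reported here, so the 11 highest peaks are shown. Other genes named were chosen after their values were seen. Members and lists were chosen with earlier results of these data known. Alternatives were a pseudocount, other windows, a 99% interval, a score minimum, an input read minimum, 1 value per gene, inclusion of chromosomes 3 and 18, and leaving out BICD1.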

Additional observations from a re-analysis of the deposited data

How the results depend on the processing

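Of 36 values under alternatives, 29 stayed within the spread of the reported one and 7 moved past it, by construction of the alternative. The median fold of 6.48 became 8.86 with only peaks above the median score of the whole table, and 7.66 with the highest peak of each gene. The share in the first 20% of the gene, 21.7%, became 14.5% with the mean position of each gene. The share within 2000 bp of the TSS, 9.68%, became 5.53% within 1000 bp and 16.6% within 5000 bp. The share with a fold interval above 2, 85.7%, became 80.4% with a 99% interval. Genes with at least 4 intragenic peaks, 10, became 2 with only peaks above the median score. The median score difference between intragenic and other peaks, 0.01, changed sign. It was -0.01 over genes and -0.0023 with chromosomes 3 and 18 included, each within the interval of the reported difference. No paired analysis was possible because there was 1 ChIP and 1 input library. At the 21 peaks with fewer than 10 input reads, the depth of the input limits the precision of the fold.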

Other observations

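The genes given here were chosen after their values were seen, and stand for themselves and for no gene group. HELLS, a chromatin remodelling helicase gene, had 87 ChIP and 8 input reads, giving a fold of 14.2 (6.92 to 34.0). PAXIP1, a gene of the DNA damage response, had 270 and 25 reads and a fold of 14.1 (9.38 to 22.2). NCAPG2, a condensin subunit gene, had 85 and 9 reads and 12.4-fold (6.22 to 28.0). UHRF1, which recruits DNA methyltransferase to replicated DNA, had folds of 11.6 (7.45 to 19.0) and 3.32 (1.78 to 6.49) at its 2 peaks. HP1BP3, which encodes a heterochromatin protein 1 binding protein, had folds of 6.79 (3.52 to 14.4) and 2.56 (1.48 to 4.55). SMC3, a cohesin subunit gene, had 2 peaks with 47 ChIP and 19 input reads and 31 and 11 reads, and folds of 3.24 and 3.69.

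GPX7, a peroxidase gene, had 82 ChIP and 7 input reads, giving a fold of 15.3 (7.12 to 39.4). HADH, a gene of mitochondrial fatty acid oxidation, had 264 and 31 reads and 11.2-fold (7.67 to 16.7). SLC7A1, a cationic amino acid transporter gene, had 3 peaks with folds of 13.0, 9.79 and 9.48, spread from 6.80% to 63.2% of the way along the gene. SLC38A1, a glutamine transporter gene, had 4.10 (2.25 to 7.90), and PFKM, a glycolytic phosphofructokinase gene, had 3.16 (1.76 to 5.93). SLC2A3, a glucose transporter gene and marked Down, had 26 ChIP and 10 input reads and 3.40-fold (1.59 to 7.91).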
